A study of Homo sapiens with 6 samples.

Results

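Long noncoding RNA (lncRNA) genes whose transcripts were nearly absent from DLD1 parental cells and present in every p85β knock-in library were taken as 1 set. DLD1 is a human colorectal cancer cell line that carries a helical-domain mutation of PIK3CA, and all libraries share that background. The mutant cells, called p85βKR-AA here, carry the K477A and R478A substitutions in the endogenous PIK3R2 gene, which change a pair of basic residues in a nuclear localization signal of p85β, a regulatory subunit of PI3-kinase. There were 3 parental and 3 p85βKR-AA libraries of bulk RNA, and the knock-in libraries came from cell clones without the clone being named. The titles and genotypes give the same substitution for all 3 knock-in libraries, while the source names of replicates 2 and 3 carry other residue numbers.

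An autosomal gene of GENCODE type lncRNA entered the set when its estimated count was at most 1 in each parental library and at least 20 in each p85βKR-AA library. This left 59 genes of the 14482 autosomal lncRNA genes in the table, and 0.524% of the 11270 that were at most 1 in each parental library. A list of 10 well-known lncRNAs was left out by name. The genes were selected on the counts of this contrast, so their levels are described with no test. The reverse pattern, at least 20 in each parental library and at most 1 in each p85βKR-AA library, was held by 0 autosomal lncRNA genes. The same limits were passed by 269 autosomal protein-coding genes, 5.96% of the 4512 that were at most 1 in each parental library, and the reverse by 1. The limits are in counts, and with the scaled library sizes used below a count was worth more in parental libraries. On that scale the reverse pattern had stricter limits, so its numbers are not like for like with those of the set.

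lncRNAs are transcripts without a long open reading frame, and most are transcribed by RNA polymerase II, spliced and polyadenylated like mRNAs. They are named after their position in many cases. A divergent transcript (DT) leaves a shared promoter region in the direction opposite to a protein-coding gene, an antisense RNA (AS) runs across the body of a gene on the other strand, and an intergenic RNA (LINC) lies between genes. Many are transcribed in few tissues, and host lncRNAs carry microRNAs or small nucleolar RNAs inside their introns or exons.

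The libraries held 20301396 to 26712816 estimated counts. Genes with a count above 0 numbered 18989 to 19707 in parental and 23231 to 24399 in p85βKR-AA libraries. Levels are given as CPM, the usual count relative to library size, with library sizes scaled by the trimmed mean of M values (TMM). On that scale, 3 counts were worth 0.185 to 0.218 CPM in the parental libraries and 0.0818 to 0.109 CPM in the p85βKR-AA libraries. TMM put the median log2 fold change of all tested genes at 0.32, and plain library totals put it 0.92 higher. Values for genes outside the set are from edgeR's quasi-likelihood test, and a gene was called when it changed 3-fold or more with an adjusted p under 0.01. By that rule 28.6% of all 16059 tested genes were called higher in p85βKR-AA cells, as were 28.2% of the 1471 tested autosomal lncRNA genes. Nothing in the sources says that the 3 libraries of a group came from separate cultures, so the tests measure the spread between these libraries only.

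The PIK3R2 gene itself had parental counts of 524, 169 and 313 and p85βKR-AA counts of 503, 476 and 125, and counts per gene do not show the base changes. Of 10 colon epithelial marker genes, 6 were called lower and 2 higher, and their summed level fell from 57200–79300 CPM in parental to 8810–10300 CPM in p85βKR-AA libraries. Most of that sum was keratins, with KRT8 at 37400 ± 6400 CPM in parental and 4450 ± 417 in p85βKR-AA (SD, n = 3). None of the 10 was at 0 in either group. Of 10 mesenchymal markers, 6 were called higher, and their sum went from 6.12–8.58 to 6330–7230 CPM, carried by FN1 and VIM. TWIST1 and COL1A2 were at 0 in all 3 p85βKR-AA libraries. Of 10 neural markers 3 were called higher, with DCX and ELAVL4 at 0 in every library, and their sum was 543–636 CPM in parental and 361–386 CPM in p85βKR-AA libraries. Of 6 blood markers 0 were called, with sums of 1.06–6.26 and 2.05–2.29 CPM. The part of these differences in the lncRNA results was not tested, and fewer cells of a type cannot be told apart from less RNA per cell in bulk libraries.

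The 59 lncRNAs were low in p85βKR-AA cells, with a few exceptions. Their mean levels ran from 0.748 to 35.2 CPM with a median of 1.88 CPM, and 46 were over 1 CPM and 8 over 5 CPM. The summed level was 204, 217 and 187 CPM in p85βKR-AA replicates 1, 2 and 3, against summed parental counts of 9.53, 8 and 8.83 over all 59 genes. The 3 highest, SNHG14, PART1 and PLAC4, made up 31.8% of the sum. In all 3 parental libraries 40 of the 59 were at 0, and the other 19 had a value above 0 in at least 1. The coefficient of variation between the 3 p85βKR-AA libraries had a median of 12.6% and ran from 2.48% to 115%. Per kilobase of the deposited gene length, the median level was 0.865 CPM per kb, against 1.01 for the 269 protein-coding genes past the same limits and 2.01 for the 422 autosomal lncRNA genes with at least 20 counts in all 6 libraries. For some members that length is shorter than the longest annotated transcript, so levels per kb and their order may change with the length used. The median length was 2010 bases, and that of the 422 was 2140 bases. Their median GC content was 43.3%, against 51.0% in the 422 and 44.2% in the 269.

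**Figure D1:**
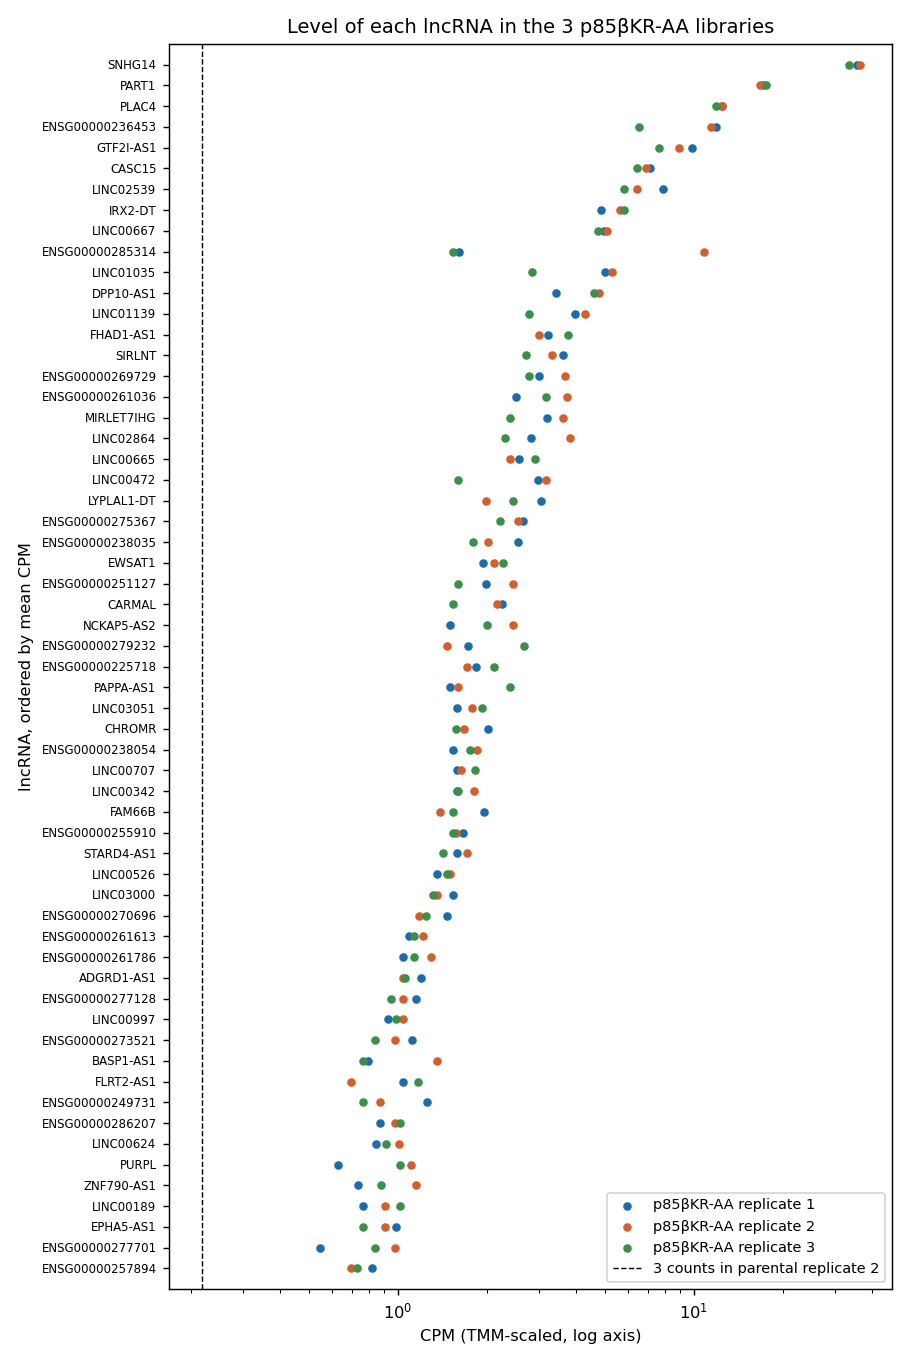
Levels of the 59 lncRNAs in CPM (log axis) in the 3 p85βKR-AA libraries, 1 colour per replicate, ordered by mean, with a dashed line at 3 counts in parental replicate 2 (0.218 CPM). SNHG14 is highest at 35.2 CPM on average, most lncRNAs lie near 1 to 4 CPM with their 3 points close together, and ENSG00000285314 has 1 library far above the other 2.

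SNHG14 (ENSG00000224078), the host RNA of the small nucleolar RNAs of the imprinted Prader-Willi and Angelman region, was the most abundant of the set. On the GRCh37 annotation it spans chromosome 15, 25223730 to 25665483. Parental libraries held 0, 1 and 0 counts of it, and p85βKR-AA libraries 1307, 1044 and 920, which are 35.7, 36.3 and 33.5 CPM. The ratio of pooled counts per pooled library size was 1590, with an exact 95% counting interval of 284 to 62600 that covers counting error only. SNHG14 is known as the long extension of transcription that begins at SNURF-SNRPN, and it runs antisense through UBE3A, a ubiquitin ligase gene. Among the protein-coding genes within 100 kb, SNRPN, which codes for a small nuclear ribonucleoprotein of the splicing machinery, was at 0 in each parental library and had 1822, 1309 and 1379 counts in the p85βKR-AA libraries. In edgeR's quasi-likelihood test SNRPN rose by 13.12 ± 0.43 (log2, SE, adjusted p = 2.56e-09). The log2 estimate of a gene at 0 in all parental libraries depends on the prior count and is no bound. SNURF went from 0 in each parental library to 40.6, 33.8 and 26.5 counts. These neighbours of SNHG14 were read after its values had been seen. UBE3A was already present in parental cells at 177, 258 and 195 counts and had 1932, 1567 and 942 counts in p85βKR-AA libraries, a rise of 1.74 ± 0.23 (log2, SE, edgeR adjusted p = 1.3e-05), a call lost with offsets for length and GC content (log2 change 0.63). SNHG14 and UBE3A share 1822 exon bases on opposite strands, and the library kit does not mark strand, so reads there cannot be assigned. SNHG14's nearest protein-coding gene by the body-distance rule, ENSG00000214265, stayed at 0 to 2.9 counts in every library. The 72 small nucleolar RNA genes inside SNHG14 were all in the table, with a summed count of 0 in each parental library and at most 1.65 in a p85βKR-AA library. These RNAs have no poly(A) tail and are short, so their rows say little about their level in a library of this kind.

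PART1, a prostate androgen-regulated transcript, lies antisense to PDE4D, which codes for a cAMP phosphodiesterase. It had 1, 0 and 0 counts in parental and 628, 479 and 481 in p85βKR-AA libraries, or 17.1 ± 0.425 CPM (SD, n = 3), with the lowest coefficient of variation of the set. The pooled ratio to the single parental count was 770 (95% counting interval 138 to 30400). PDE4D had 30, 37 and 24 parental counts and 2430, 2174 and 1072 in p85βKR-AA libraries, so its groups did not overlap, and it rose by 4.89 ± 0.30 (log2, SE, edgeR adjusted p = 1.54e-08). The exons of PART1 share 1.79% of their bases with another gene, PDE4D being the main one.

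PLAC4, a transcript first described in placenta, lies antisense to BACE2, an aspartyl protease gene. It was at 0 in all 3 parental libraries and had 456, 356 and 326 counts in p85βKR-AA libraries (12.2 ± 0.311 CPM), at least 56.0-fold higher than 3 counts in parental replicate 2. All bounds below use that floor of 0.218 CPM. BACE2 was well expressed in both groups, at 38.3 ± 3.29 CPM in parental and 75.8 ± 1.72 CPM in p85βKR-AA (SD, n = 3). Its change of 0.98 ± 0.13 (log2, SE) had an edgeR adjusted p of 1.43e-05 but was under the 3-fold limit, so it was not called. With length and GC offsets its direction turned, to −0.63, and with library totals it was called higher at 1.91.

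Per kilobase, the highest level belonged to ENSG00000236453, an unnamed intergenic lncRNA on chromosome 7 that lies 18451 bases from BET1, a Golgi SNARE gene. It was at 0 in each parental library and reached 437, 328 and 179 counts in p85βKR-AA libraries, which are 11.9, 11.4 and 6.52 CPM and 13.4 CPM per kb. It was lower in replicate 3 than in the other p85βKR-AA libraries. The increase was at least 45.6-fold. BET1 had 67, 79 and 77 counts in parental and 397, 336 and 235 in p85βKR-AA libraries, and its log2 change of 1.06 ± 0.21 was not called (edgeR adjusted p = 0.000439, under the 3-fold limit). LINC02539, next at 9.10 CPM per kb, lies 74379 bases from TNFAIP3, which codes for the NF-κB inhibitor A20. It went from 0 in each parental library to 288, 185 and 160 counts, at least 30.7-fold higher. TNFAIP3 rose from 5.52 ± 0.758 to 120 ± 3.15 CPM (SD, n = 3), a log2 change of 4.43 ± 0.16 (edgeR adjusted p = 4.98e-10).

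GTF2I-AS1 followed at 6.94 CPM per kb. It is antisense to GTF2I, a transcription factor gene of the Williams syndrome region. It was at 0 in each parental library and at 360, 255 and 209 counts in p85βKR-AA libraries, at least 40.1-fold higher. GTF2I rose by 1.64 ± 0.17 (log2, SE, edgeR adjusted p = 1.7e-06), a change just past the 3-fold limit. This call was lost in DESeq2, where the log2 change was 1.57, and with offsets for length and GC content, where it was 0.20. The exons of GTF2I-AS1 share 12.0% of their bases with GTF2I or another gene, and the library kit does not mark strand, so reads of shared bases cannot be assigned to a strand.

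CASC15, a lncRNA gene of 990270 bases on chromosome 6, overlaps PRL, the prolactin gene. It went from 0 in each parental library to 260, 198 and 177 counts, or 6.81 ± 0.329 CPM (SD, n = 3), at least 31.2-fold higher. PRL was at 0 in all 6 libraries. SOX4, a developmental transcription factor gene within 100 kb of CASC15, had 285, 232 and 407 counts in parental and 1892, 1576 and 1360 in p85βKR-AA libraries. Its log2 change of 1.35 ± 0.17 (edgeR adjusted p = 7.89e-06) was under the 3-fold limit, and past it with library totals (2.27).

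Among the other members high per kilobase, ENSG00000261036 was at 6.06 CPM per kb and had 92, 107 and 87 counts, while PRR16 at 53331 bases stayed at 4 to 9 counts in p85βKR-AA libraries and was not tested. ENSG00000269729, at 5.13 CPM per kb, lies near IGFL2, a gene of the IGF-like family. The lncRNA went from 0 in each parental library to 110, 105 and 76 counts, and IGFL2 moved the other way, from 35.9 ± 2.97 to 11.3 ± 0.328 CPM, a log2 change of −1.67 ± 0.15 (edgeR adjusted p = 4.56e-07). With library totals in place of TMM the change in IGFL2 was −0.75 and was not called. SIRLNT, at 3.63 CPM per kb, lies 143387 bases from TCIM, a small regulatory protein gene that rose by 4.30 ± 0.56 (log2, SE, edgeR adjusted p = 1.16e-05) from 0, 2 and 2 counts to 82, 47 and 46. CARMAL, at 3.31 CPM per kb and 82, 62.2 and 42 counts, ends 4640 bases from ABHD2, a lipase gene that rose by 2.27 ± 0.18 (log2, SE, edgeR adjusted p = 1.06e-07). ENSG00000225718, at 2.68 CPM per kb, lies 167373 bases from AUTS2, a chromatin-related gene of neural development that rose by 3.43 ± 0.27 (log2, SE, edgeR adjusted p = 1.37e-07).

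Of the 59 lncRNAs, 29 overlapped the body of a protein-coding gene, and 47 lay within 100 kb of the nearest one. Antisense overlap was the most frequent position, with 23 members (39.0%), against 30.5% of the other autosomal lncRNA genes. There were 12 members (20.3%) over 100 kb away and 11 (18.6%) at 10 to 100 kb, against 16.6% and 18.6%. Head-to-head starts, on opposite strands and within 2 kb, were held by 5 members (8.47%), against 15.9% of the other lncRNAs, and sense overlap by 2 (3.39%), against 8.81%. These shares were not tested against each other. Each lncRNA was given only the first class that fitted, with head-to-head taken before antisense overlap. EPHA5-AS1, FLRT2-AS1, LYPLAL1-DT and ENSG00000273521 are thus counted as head-to-head, although they also overlap the body of their partner on the opposite strand. With starts within 1 kb, 3 members were head-to-head.

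The protein-coding genes next to the 59 lncRNAs were mostly higher in p85βKR-AA cells. The set had 58 different nearest protein-coding genes, of which 45 were tested. Of these 45, 31 (68.9%) were called higher and 2 (4.44%) lower, while 12 were not called. Among all 13261 tested autosomal protein-coding genes, 27.7% were called higher and 18.6% lower. The median log2 fold change was 2.99 for the neighbours and 0.24 for all tested autosomal protein-coding genes. The nearest genes of the other autosomal lncRNAs were called higher in 33.7% of 5577, those of lncRNAs at most 1 in all 6 libraries in 39.2% of 3516, and those of lncRNAs with at least 20 counts in all 6 libraries in 22.6% of 363. The difference between these shares was not tested. Nearest genes called higher had a median length of 5100 bases, tested nearest genes 4570 bases and tested protein-coding genes 2960 bases. With offsets for length and GC content, 51.1% of the neighbours and 15% of the protein-coding genes were called higher.

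Neighbours called higher were found at every distance. Of the 29 overlapping neighbours 17 were called higher and 0 lower, of the 18 within 100 kb without overlap 10 higher and 2 lower, and of the 11 farther away 4 higher and 0 lower. The 13 that were not tested fell below the filter on low counts, and 10 of them were at most 1 in all 6 libraries. Of the 12 that were not called, 8 had an adjusted p under 0.01 in edgeR's quasi-likelihood test and missed the 3-fold limit, 6 of them higher in p85βKR-AA. Those 6, BACE2, BET1, ZBTB14, OGFRL1, RGMB and MAT2B, were called higher with library totals. In that setting 42.8% of autosomal protein-coding genes were called higher. In parental cells, 24 of the 58 neighbours had at least 20 counts in every library, 19 were at most 1 in every library, and 15 lay between. The gene groups listed for the neighbours go by the start of the symbol, not by function. Of the 58, 2 had a symbol of a developmental transcription factor family (IRX2 called higher, IRX4 called lower), 1 had a ZNF symbol (ZNF790, called higher), 1 a cadherin symbol (CDH9, at 0 in all libraries), and 54 had none of the listed starts.

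Of the 58 neighbours, 6 (10.3%) passed the limits that had chosen the lncRNAs, against 1.42% of all autosomal protein-coding genes. They were IRX2, EPHA5, FLRT2, DPP10, NCKAP5 and LSAMP, and each was at 0 in all 3 parental libraries. The share past the limits was 2.12% among nearest genes of the other autosomal lncRNAs and 2.9% for lncRNAs at most 1 in all 6 libraries. For lncRNAs with at least 20 counts in all 6 it was 0.498%. The difference between these shares was not tested. EPHA5 and FLRT2 share exon bases with their lncRNA, in libraries that do not mark strand.  IRX2 codes for an Iroquois homeobox transcription factor, EPHA5 for an ephrin receptor kinase, FLRT2 for a leucine-rich repeat guidance and adhesion protein, DPP10 for a peptidase-like subunit of potassium channels, and LSAMP for a membrane protein of limbic neurons.

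IRX2-DT and IRX2 had similar counts, and per kilobase the lncRNA was the higher. IRX2-DT (chromosome 5, 2752245 to 2755511, GRCh37) was at 0 in each parental library and had 178, 162 and 160 counts in p85βKR-AA libraries, at least 24.9-fold higher. IRX2, whose start lies 454 bases away on the other strand, had 202, 166 and 136 counts. Per kilobase of deposited length, IRX2-DT was at 6.11 ± 0.581 CPM and IRX2 at 1.76 ± 0.136 CPM (SD, n = 3). The deposited length of IRX2-DT is 890 bases, while its longest annotated transcript has 1441, so the size of this gap depends on the length used. IRX2 was picked here for passing the same limits in this contrast, so its p-value would add nothing and is left out. No exon base of IRX2-DT is shared with another gene. A second lncRNA of the set, ENSG00000249731, lies 783118 bases away in the same gene cluster, with IRX4 as its nearest gene at 80858 bases. IRX4 had 108, 88 and 137 counts in parental and 53, 37 and 26 in p85βKR-AA libraries, a log2 change of −2.57 ± 0.25 (edgeR adjusted p = 7.59e-07). It was the other neighbour called lower. With length and GC offsets its change was −0.57 and was not called. For ENSG00000249731 itself, 70.5% of the longest transcript has a near-identical copy elsewhere, so its counts of 46.0, 25.2 and 21.2 are uncertain.

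In counts the other 5 lncRNAs were below their neighbours, but per kilobase of deposited length this held in 3 of the 5 pairs. EPHA5-AS1 had 35.9, 25.9 and 21.0 counts, while EPHA5 had 684, 527 and 330, from starts 534 bases apart. Since 42.4% of the exon bases of EPHA5-AS1 are shared with EPHA5 or another gene, its count cannot be fully told apart from that of EPHA5. FLRT2-AS1 had 38, 20 and 31.8 counts, while FLRT2 had 912, 735 and 680. FLRT2-AS1 shares 21.4% of its exon bases with other genes, 11.4% with FLRT2 and 9.98% with the lncRNA ENSG00000258945. DPP10-AS1 shares no exon base and had 125, 137 and 126 counts, against 610, 514 and 310 for DPP10. NCKAP5-AS2 also shares none, with 55, 70 and 55 counts against 227, 177 and 155 for NCKAP5. DPP10-AS1 and NCKAP5-AS2 lie inside the bodies of these neighbours. Without strand, unspliced reads of the neighbour there could not be told apart from those of the lncRNA. LINC03051, 532765 bases from LSAMP, had 58, 51 and 53 counts against 412, 355 and 261. Per kilobase of deposited length, NCKAP5-AS2 was above NCKAP5 in all 3 p85βKR-AA libraries, at 3.54 ± 0.84 against 0.79 ± 0.0403 CPM (SD, n = 3). DPP10-AS1 and DPP10 overlapped, at 5.83 ± 1.01 and 5.54 ± 1.27 CPM per kb. The deposited length of DPP10-AS1 is 730 bases, while its longest annotated transcript has 4977. For NCKAP5-AS2 these lengths are 560 and 1188 bases. The levels of both lncRNAs per kb, and the place of DPP10-AS1 against DPP10, may therefore change with the length used. EPHA5-AS1 (0.751 against 1.94), FLRT2-AS1 (0.395 against 0.745) and LINC03051 (3.18 against 7.07 CPM per kb for LSAMP) were below their neighbours in all 3. The 5 neighbours were picked here for passing the limits in this same contrast. Their p-values would add nothing to that choice and are left out. EPHA5-AS1 and FLRT2-AS1 were singled out after their values had been seen.

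**Figure D2:**
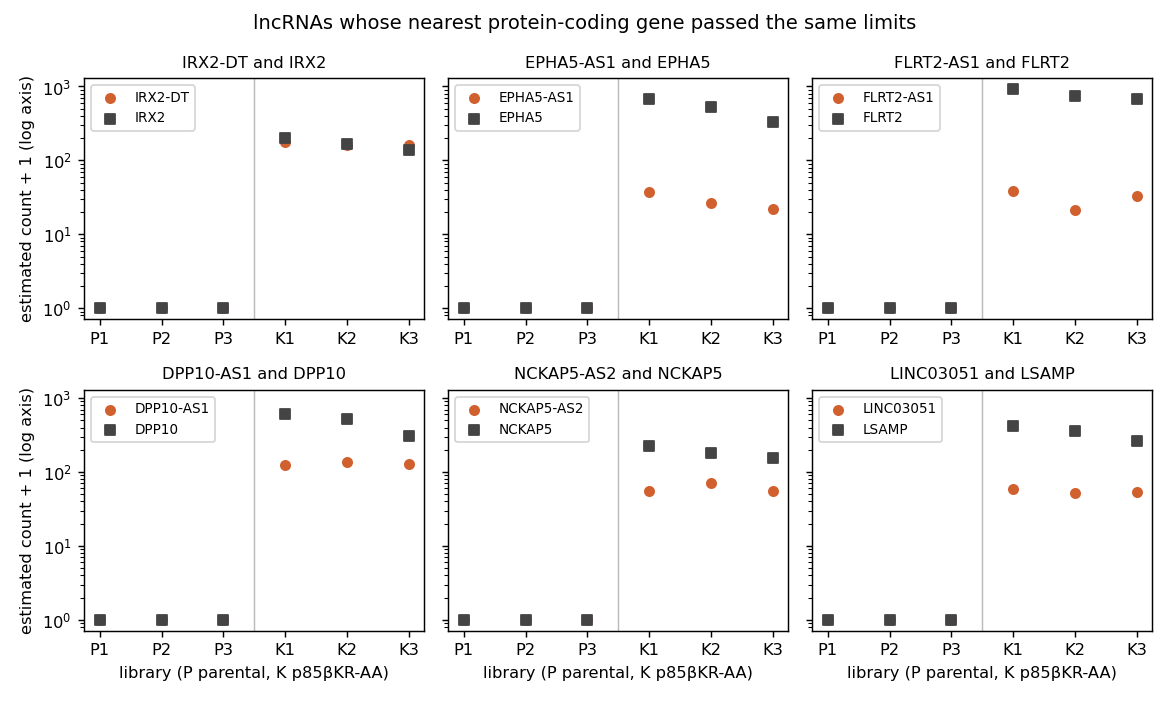
Estimated counts plus 1 (log axis) of 6 lncRNAs (circles) and their nearest protein-coding genes (squares) in the 3 parental (P) and 3 p85βKR-AA (K) libraries. All 12 genes are at 0 in each parental library, and in p85βKR-AA libraries IRX2-DT lies with IRX2 while the other 5 lncRNAs have fewer counts than their neighbours, with no correction for gene length.

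The windows of head-to-head pairs overlapped to different degrees. The RefSeq promoter table (GRCh38.p14, 250 bases before to 50 after each start) held 28 of the 59 lncRNAs, matched by symbol. The following 5 windows are shown because each shares bases with the window of a divergent partner. They are printed in the direction of the lncRNA with CpG dinucleotides in capitals.
IRX2-DT: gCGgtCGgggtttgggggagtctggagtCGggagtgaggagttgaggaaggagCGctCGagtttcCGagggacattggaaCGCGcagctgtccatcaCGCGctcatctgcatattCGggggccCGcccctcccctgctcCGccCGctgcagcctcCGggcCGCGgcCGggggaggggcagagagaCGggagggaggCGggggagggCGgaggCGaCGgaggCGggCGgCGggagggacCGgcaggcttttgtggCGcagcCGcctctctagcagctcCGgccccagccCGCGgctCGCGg
EPHA5-AS1: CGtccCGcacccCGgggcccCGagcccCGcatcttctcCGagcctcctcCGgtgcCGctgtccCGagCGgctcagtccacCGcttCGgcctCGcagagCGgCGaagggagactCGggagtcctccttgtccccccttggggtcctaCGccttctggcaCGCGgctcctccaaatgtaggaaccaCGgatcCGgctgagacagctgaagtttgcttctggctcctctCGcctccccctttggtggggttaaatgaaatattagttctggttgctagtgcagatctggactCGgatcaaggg
LYPLAL1-DT: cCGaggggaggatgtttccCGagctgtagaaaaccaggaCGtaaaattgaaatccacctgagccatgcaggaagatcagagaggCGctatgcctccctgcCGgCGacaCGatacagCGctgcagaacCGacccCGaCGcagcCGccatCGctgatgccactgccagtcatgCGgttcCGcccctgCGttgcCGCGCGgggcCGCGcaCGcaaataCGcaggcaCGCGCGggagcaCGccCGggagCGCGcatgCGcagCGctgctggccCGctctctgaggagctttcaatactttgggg
LINC00667: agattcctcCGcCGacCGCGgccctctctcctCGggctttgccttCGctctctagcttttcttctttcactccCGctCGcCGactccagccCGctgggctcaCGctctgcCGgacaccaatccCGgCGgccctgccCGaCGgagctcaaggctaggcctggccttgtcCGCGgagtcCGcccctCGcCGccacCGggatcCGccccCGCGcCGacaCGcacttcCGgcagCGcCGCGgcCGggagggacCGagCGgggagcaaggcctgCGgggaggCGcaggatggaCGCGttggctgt
LINC00526: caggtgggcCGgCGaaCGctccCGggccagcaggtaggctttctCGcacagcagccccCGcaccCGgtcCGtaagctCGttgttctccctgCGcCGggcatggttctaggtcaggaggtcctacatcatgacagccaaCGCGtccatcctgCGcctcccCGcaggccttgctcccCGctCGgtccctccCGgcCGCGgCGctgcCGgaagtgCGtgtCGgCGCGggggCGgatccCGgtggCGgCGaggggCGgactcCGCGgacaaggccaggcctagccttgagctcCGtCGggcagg

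The IRX2-DT window, chr5:2751643-2751942 on the plus strand, shares 285 bases with that of IRX2 on the minus strand, and holds 34 CpG dinucleotides at a GC content of 73.3%. The EPHA5-AS1 window (chr4:65669711-65670010, plus strand) shares 28 bases with 1 of the 2 windows of EPHA5 and 0 with the other, and holds 23 CpG dinucleotides. The window of FLRT2-AS1, not shown, shares 0 bases with each of the 3 windows of FLRT2. The LYPLAL1-DT window (chr1:219173739-219174038, minus strand) shares 189 bases with a window of LYPLAL1 and holds 33. The observed to expected CpG ratio was 0.878, 0.771 and 1.05 in these windows. Over the 28 windows the ratio had a median of 0.542 and ran from 0 to 1.05, and it was over 0.6 in 13 (46.4%). Over all 35116 windows of the table the median was 0.579 and 48.8% were over 0.6. The windows of the 44 neighbours in the table had a median of 0.720, with 61.4% over 0.6. The 6 letters TATAAA, searched on both strands, were in 2 of the 28 windows (7.14%), those of PLAC4 and LINC03000, and in 11.5% of all windows. At the low end of the ratio, PURPL had no CpG dinucleotide in its window, and PLAC4 and PART1 had ratios of 0.181 and 0.198. 

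LYPLAL1-DT differed from IRX2-DT in its partner. LYPLAL1-DT was at 0 in each parental library and had 112, 57 and 67 counts in p85βKR-AA libraries (3.44 CPM per kb, at least 11.4-fold higher). LYPLAL1, a lysophospholipase-like gene whose start is 92 bases away, was expressed in all libraries, with 446, 546 and 518 counts in parental and 823, 605 and 443 in p85βKR-AA. Its log2 change was −0.76 ± 0.18 with TMM (edgeR adjusted p = 0.00155, under the 3-fold limit) and 0.17 with library totals, so its direction turned with the scaling. The remaining head-to-head member, ENSG00000273521, had 41, 28 and 23 counts. It lies inside the body of BNIP3, a mitophagy receptor gene, on the other strand, with starts 1727 bases apart. BNIP3 rose by 2.50 ± 0.21 (log2, SE, edgeR adjusted p = 1.92e-07) from a parental level of 38.6 ± 12.8 CPM. Without strand, unspliced reads of BNIP3 there could not be told apart from those of ENSG00000273521.

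LINC00667 and LINC00526 overlap each other on chromosome 18 with starts 772 bases apart on opposite strands, the only overlapping pair in the set. Their windows, chr18:5237850-5238149 and chr18:5237980-5238279, share 170 bases and have CpG ratios of 0.994 and 0.901. Both were at 0 in every parental library. LINC00667 had 183, 146 and 130 counts in p85βKR-AA libraries (4.94 ± 0.18 CPM, SD, n = 3, at least 22.6-fold higher). LINC00526 had 50.2, 43.0 and 39.5 counts, and 41.2% of its exon bases are shared with another gene, LINC00667 being the main one. ZBTB14, a zinc finger transcription factor gene that LINC00667 overlaps, had 39, 33 and 46 parental and 287, 223 and 161 p85βKR-AA counts. Its log2 change of 1.45 ± 0.22 was not called (edgeR adjusted p = 5.67e-05, under the 3-fold limit), and AKAIN1, on the other side, was at 0 in all 6 libraries.

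A second neighbouring pair lay far from any protein-coding gene. ENSG00000238054 and LINC01035 on chromosome 1 start 17148 bases apart on opposite strands. Their nearest protein-coding gene, BRINP3, was 1060093 bases from LINC01035 and was at 0 in all 6 libraries. Both lncRNAs were at 0 in each parental library. In p85βKR-AA libraries LINC01035 had 184, 152 and 78 counts (5.59 CPM per kb) and ENSG00000238054 had 56, 53 and 48. LINC01035 was lower in replicate 3, at 2.84 CPM against 5.02 and 5.29 CPM. No cluster of 3 or more members within 1 Mb was found. Over the chromosomes, chromosome 5 held 10 of the 59 (16.9%) against 5.86% of the autosomal lncRNA genes, chromosome 2 held 7 and chromosome 1 held 6, and there were 0 on chromosomes 11, 13, 17 and 20. The share on chromosome 5 was not tested.

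Further antisense members differed in what their partner did. FHAD1-AS1 (3.32 ± 0.39 CPM, SD, n = 3) shares 60.2% of its exon bases with another gene, mainly FHAD1, which rose by 2.99 ± 0.30 (log2, SE, edgeR adjusted p = 9.47e-07). PAPPA-AS1, at 0 in each parental library and at 55.4, 46.4 and 66.2 counts in p85βKR-AA libraries, lies wholly (100%) on exons of PAPPA, which codes for a protease of IGF-binding proteins and had 0, 0 and 2 counts in parental and 991, 722 and 699 in p85βKR-AA libraries. Without strand, the counts of PAPPA-AS1 cannot be told apart from those of PAPPA. CHROMR, with a role in cholesterol homeostasis, had 74, 48 and 43 counts, while its partner PRKRA, an activator of the kinase PKR, did not pass the test (log2 change −0.02 ± 0.16, edgeR adjusted p = 0.933). FAM66B had 71.9, 40 and 42.3 counts, and its neighbour USP17L4 had at most 0.69 counts in any library. The 23 antisense members had 14 partners called higher, 0 called lower, 7 not called and 2 not tested. Among all tested autosomal protein-coding genes, 27.7% were called higher and 18.6% lower. Partners that share exon bases with their member, such as FHAD1 and PAPPA, are not separate readings.

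Some partners chosen after their values were seen had large changes. ADGRD1, an adhesion G protein-coupled receptor gene, went from 2, 0 and 9 counts to 6224, 4734 and 4995, a rise of 9.43 ± 0.35 (log2, SE, edgeR adjusted p = 7.29e-10), while ADGRD1-AS1 had 44, 30 and 29 counts. BASP1, a membrane-bound signalling protein gene, went from 2, 5 and 0 counts to 3688, 2799 and 2658, a rise of 9.25 ± 0.34 (edgeR adjusted p = 6.41e-10), while BASP1-AS1 had 29, 39 and 21. In both pairs the lncRNA had far fewer counts than its partner. ZNF790-AS1 had 27, 33 and 24.1 counts, and ZNF790 went from 0 in each parental library to 39, 24 and 17, just under the limit of 20 in 1 library.

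Host RNAs of microRNAs were found among the members too. LINC00472 contains MIR30A and MIR30C2, and MIRLET7IHG contains MIRLET7I. The main mature forms in RefSeq are shown with their seed, bases 2 to 8, in capitals, since the first 2 share 1 seed.
hsa-miR-30a-5p: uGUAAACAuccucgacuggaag
hsa-miR-30c-5p: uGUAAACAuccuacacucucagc
hsa-let-7i-5p: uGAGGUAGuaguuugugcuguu

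LINC00472 had 1, 0 and 0 counts in parental and 109, 91 and 44.2 in p85βKR-AA libraries, which are 2.97, 3.17 and 1.60 CPM. Replicate 3 was the lowest. OGFRL1, on the other strand, had a log2 change of 1.37 ± 0.24 that was not called (edgeR adjusted p = 0.000177, under the 3-fold limit). With length and GC offsets its direction turned, to −1.09, and with library totals it was called higher at 2.31. MIRLET7IHG, named here for its microRNA, had 0, 0 and 1 counts in parental and 117, 104 and 66 in p85βKR-AA libraries (3.07 ± 0.617 CPM, SD, n = 3). It lies 2276 bases downstream of MON2, an endosome and Golgi trafficking gene that rose by 3.53 ± 0.24 (log2, SE, edgeR adjusted p = 3.04e-08), a call lost with length and GC offsets (log2 change 0.87). The microRNA rows for MIR30A, MIR30C2 and MIRLET7I were at 0 in all 6 libraries, and libraries made for long RNAs do not measure mature microRNAs. The levels of the 3 sequences above are therefore unknown here.

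Several members rest on counts that cannot be assigned with certainty. At least 1 exon base is shared with another gene in 36 of the 59, over 10% in 19, and none in 23. Sharing no exon base does not settle this for members inside the body of another gene, where its unspliced reads could be counted. The number of such reads was not measured. ENSG00000285314 shares 95.2% of its exon bases, mainly with LZTR1 on the same strand. It was at 0 in each parental library and had 59.0, 310 and 42.1 counts in p85βKR-AA libraries, so that replicate 2, at 10.8 CPM, stood far above 1.61 and 1.53 CPM. LZTR1, an adaptor gene of a ubiquitin ligase, had 1677, 1167 and 1376 parental counts and 1385, 819 and 1118 p85βKR-AA counts. Among the p85βKR-AA libraries, replicate 2 was the highest for ENSG00000285314 and the lowest for LZTR1. ENSG00000270696 lies almost wholly (99.9%) on MRPL19, and ENSG00000279232 on RGMB (92.3%). Near-identical copies elsewhere in the annotation cover 100% of the longest transcript of ENSG00000238035, 81.9% of LINC00665 and 70.6% of ENSG00000277701. With members sharing no exon base only, 14 of the 17 tested neighbours (82.4%) were called higher and 2 lower. Among all tested autosomal protein-coding genes these shares were 27.7% and 18.6%.

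The limits cut through a continuous range of values. Just inside, FLRT2-AS1 had 38, 20 and 31.8 counts in p85βKR-AA libraries, ENSG00000257894 had 30.4, 20.1 and 20.1, and ENSG00000277701 had 20.4, 28.5 and 22.9. Just outside, LINC03046 had 45, 19 and 25, LCMT1-AS2 had 19, 26 and 22, and ENSG00000272335 had 79, 39 and 19. In all, 24 lncRNAs had their lowest p85βKR-AA value from 15 to under 20.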

How the data were processed

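RNA of 3 parental and 3 p85βKR-AA DLD1 libraries, prepared with an Illumina TruSeq kit that does not mark strand, was trimmed and aligned by the authors. Per the labels, HISAT2 2.1.0 and RSEM 1.3.1 gave the deposited table of estimated counts per Ensembl gene, with a gene length column. The submitters name the build hg18, although the identifiers come from a later annotation. How reads of shared exons were divided follows RSEM's estimate. The table was planned for as whole counts, and the estimated counts were rounded to whole numbers for the tests. Members were selected on the deposited values.

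Gene types, positions and exons were taken from GENCODE 44 lifted to GRCh37, which matched 56745 of the 58884 genes. Promoters and microRNAs are from RefSeq tables (GRCh38.p14), whose coordinates were kept apart. Genes were filtered with filterByExpr (minimum count 10, minimum total 15), scaled by TMM and tested on all 6 libraries with edgeR 4.0.16 (quasi-likelihood test, Benjamini-Hochberg over 16059 genes). Same-numbered libraries correlated by −0.136, 0.119 and −0.0447 after the group means were removed, so numbers do not pair libraries. No 2 libraries of a group agreed within counting noise. Copies were searched with BLAST+ 2.17.0 (at least 97% identity over 300 bases).

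The members and gene lists were chosen with earlier results of these data known. Named were the 15 members with most CPM per kb, up to 15 overlapping or head-to-head members with a symbol, their neighbours, and genes next to the limits. Others are named where a result turned on them.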

Additional observations from a re-analysis of the deposited data

How the results depend on the processing

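The number of lncRNAs in the set depended on its limits. It was 100 with up to 3 parental counts allowed, 115 with at least 10 and 24 with at least 50 counts in p85βKR-AA libraries, 33 with limits of 0.05 and 1 CPM, and 23 with no shared exon. Without 1 library it was 61 to 75, and it can only grow, since leaving out a library relaxes the rule. With starts within 1 kb, 3 members were head-to-head. The share of tested neighbours called higher was 82.2% with library totals (42.8% of protein-coding genes), 53.6% with at least 10 counts in every library (23.5%) and 51.1% with length and GC offsets (15%). For members with no shared exon it was 82.4% of only 17 tested neighbours, against 27.7% of protein-coding genes. Without 1 library the share over all tested neighbours was 64.4% to 68.9%. All genes called higher numbered 7052 with library totals, 2898 with at least 10 counts in every library, 2831 with offsets and 4404 to 4783 without 1 library, against 4597. All genes called lower numbered 973 with library totals, 1042 with offsets and 2774 to 2992 without 1 library, against 2825. Library totals shift every log2 change by 0.92 at the median. The cause of these changes was not tested, except that a filter of 10 counts in every library removes genes that are at 0 in parental cells.

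In the fit with a replicate block, 4626 genes were called higher and 2827 lower, the neighbours' share called higher stayed at 68.9% and that of autosomal protein-coding genes was 27.9%. Other shares were not computed with the replicate block, and the numbers did not pair the libraries.

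Offsets for length and GC content changed the call of 11 tested neighbours and the sign of 5, library totals that of 7 and 3, and DESeq2 that of 2 and 0. With counts of 20 to 60 in many members, 1 count in a p85βKR-AA library is worth 0.0273 to 0.0364 CPM, and a parental value of 0 allows up to 0.218 CPM.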
